A study of Mus musculus with 6 samples.

Results

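The 8 genes described here encode the mouse SPARC family of matricellular proteins, that is Smoc1, Smoc2, Sparc, Sparcl1, Spock1, Spock2, Spock3 and Fstl1. They were taken by gene symbol from the 23594 genes of the table, and all 8 passed the filter on low counts together with 20114 genes in all. Smoc2 was selected on its own counts, that is on its difference between the genotypes in these same libraries, and the family was assembled around it, so its values are given as a description without a test. The other 7 belong by protein family and were tested in the fit across all genes. RNA was sequenced from the apical part of the furcation development region (FDR) of mandibular first molars at postnatal day 4.5, when molar root formation begins. Each library combined laser-captured tissue of 8 molars cut from 12 µm sections, and there were 3 control and 3 Lhx6-/- libraries. Control mice were labelled wild type and Lhx6-/- mice were their mutant littermates, all labelled C57BL/6 and 4.5 days of age. By the study's methods the Lhx6-/- animals were homozygous for an Lhx6-CreER knock-in allele, which abolishes Lhx6 function in the whole animal rather than in the dental mesenchyme alone. Nothing in the labels ties a library to particular animals, so p-values measure the spread between the pools that were sequenced.

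SPARC family proteins are secreted into the extracellular matrix, where they modulate how cells meet the matrix more than they build it. They share a follistatin-like domain and, in most members, a calcium-binding domain, and the SMOC proteins and the testicans (Spock genes) also carry thyroglobulin type 1 domains. SPARC itself binds fibrillar collagen and is abundant in dentin- and bone-forming cells, the SMOC proteins bear on BMP signalling, and loss of human SMOC2 causes an inherited dental anomaly with small teeth and abnormal roots. Lhx6, a LIM homeodomain transcription factor, is expressed in the mesenchyme of the jaw and tooth.

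The part of the coding sequence in which Smoc1 and Smoc2 are most alike is shown because reads of 75 bases from one gene could be assigned to the other where the sequences match. In the best-matching stretch of that length, both genes in their exon 8 and read from the genome on the plus strand (GRCm38, GENCODE vM21), 64 bases were identical and 11 differed. The stretches lie at chr12:81167579-81167653 for Smoc1 and chr17:14368974-14369048 for Smoc2, and the bases that differ are in capitals.
Smoc1: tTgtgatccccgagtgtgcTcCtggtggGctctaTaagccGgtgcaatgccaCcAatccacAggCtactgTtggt
Smoc2: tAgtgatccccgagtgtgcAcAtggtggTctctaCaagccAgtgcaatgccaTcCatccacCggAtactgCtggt
The longest run shared by the coding sequences of this pair was 33 bases, shorter than a read. The next most similar pair, Sparc and Sparcl1, differed at 14 of 75 bases in its best stretch, and Spock1 differed at 16 of 75 from Spock2 and likewise from Spock3. No other pair of members came as close as these, so no read from the coding sequence of one member would match another over its whole length.

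Levels are given as CPM, that is estimated counts per 1000000 of each library's TMM-normalized total. Libraries held 60132323 to 76157433 estimated counts. In replicates 1, 2 and 3 of the control group Lhx6 itself stood at 27.8, 18.2 and 21.9 CPM, and in those of the Lhx6-/- group at 12.8, 9.82 and 10.5 CPM, so the groups did not overlap. It fell by 1.04 on the log2 scale (SE 0.16, adjusted p = 0.021, edgeR quasi-likelihood test with Benjamini-Hochberg adjustment over all genes tested), and some transcript remained in every Lhx6-/- library. Its exons overlap those of Gm27953 on the same strand, so reads of the pair may be shared. Across alternative fits its adjusted p ran from 1.54e-07 to 0.134, and it was over 0.05 when Control replicate 3 was left out (0.111) and when either replicate 2 (0.11) or replicate 3 (0.0772) of the Lhx6-/- group was. The same held with the Y-linked level (0.115, log2 fold change -0.62) or the epithelial marker level (0.134, log2 fold change -1.04) as a covariate. All 6 libraries held Y-linked transcripts, and 4 such genes summed to 14.6 to 58 CPM in controls and 55.1 to 92.1 CPM in Lhx6-/- libraries.

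Smoc2, chosen for its difference between the genotypes, changed more than any other member. It lies on chromosome 17 (chr17:14279506-14404790, mm10, plus strand). Its level was 65.4 CPM in the first control library, 52.7 in the second and 57.9 in the third, and the corresponding Lhx6-/- libraries gave 309, 294 and 271 CPM. The lowest Lhx6-/- library was far above the highest control library, and the libraries of each genotype lay close together, with a within-group SD of 0.13 on the log2 CPM scale. The means were 58.7 ± 6.41 CPM (SD, n = 3) and 291 ± 19 CPM (SD, n = 3), a ratio of 4.97 and a fitted log2 fold change of 2.31 (SE 0.09). Behind these values were 3426 to 4071 estimated counts per control library and 18886 to 21893 per Lhx6-/- library, so counting error was a small part of the spread. Among all genes tested the log2 fold change of Smoc2 was at percentile 99.8. Over 13 alternative fits, 6 of which left out 1 library each, the log2 fold change ran from 2.24 to 2.51. Because Smoc2 was chosen for this difference, its percentile, SE and range over fits are a description and no test. In pooled tissue, a larger share of cells with the transcript and more transcript per cell cannot be told apart, for Smoc2 and for every other gene.

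**Figure D1:**
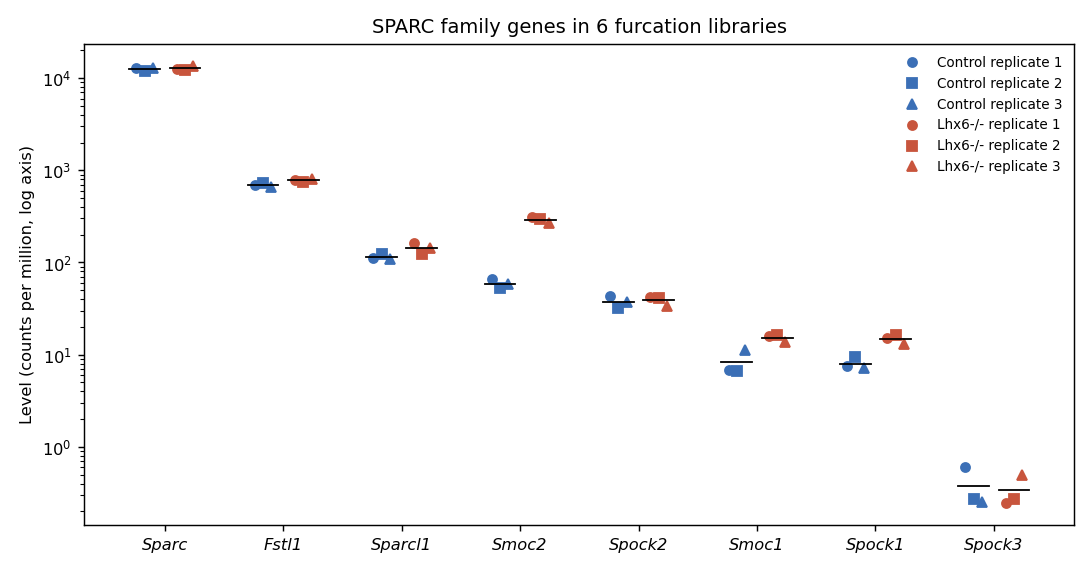
Level of each of the 8 SPARC family genes in each library, in CPM on a log axis, with control libraries in blue, Lhx6-/- libraries in red, marker shapes for the replicates and a black bar at each group mean. Smoc2 averaged 58.7 CPM in controls and 291 CPM in Lhx6-/- libraries, Sparc 12595 and 12819 CPM, and Spock3 lay below 1 CPM throughout.

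Of the 7 other members, 2 were higher in Lhx6-/- libraries by the study's rule (a change of 1.5-fold or more and an unadjusted p below 0.05), where 1.58% of all genes tested were, and none was lower, where 1.71% of all genes tested were. These were Smoc1 and Spock1. Spock1 also had an adjusted p under 0.05, which 0.323% of all genes tested reached as higher and 0.0795% as lower. The libraries of the genotypes did not overlap for 3 of the 7, namely Smoc1, Spock1 and Fstl1, against 15.5% of all genes tested. Log2 fold changes of 6 of the 7 were above 0, with a median of 0.17 beside a median of -0.00 over all genes tested.

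Smoc1, the closest relative of Smoc2 and like it a secreted modulator of BMP signalling, lies on chromosome 12 (chr12:81026808-81186414, plus strand). It was measured at 6.78, 6.57 and 11.3 CPM in controls and at 15.8, 16.2 and 13.7 CPM in Lhx6-/- libraries. Control replicate 3 was the highest control and came within a few CPM of the lowest Lhx6-/- library, yet the groups did not overlap. The group means were 8.23 ± 2.7 and 15.2 ± 1.34 CPM (SD, n = 3 each). The log2 fold change was 0.89 (SE 0.20), which met the fold and p rule but missed the threshold after adjustment over all genes (adjusted p = 0.131, edgeR quasi-likelihood). It met the rule in all 13 alternative fits, with log2 fold changes of 0.75 to 1.33 and adjusted p-values of 0.00118 to 0.52. It passed after adjustment in 3 of these fits, with DESeq2 (0.00118), with the Y-linked level as a covariate (0.0474) and without Control replicate 3 (0.0166, log2 fold change 1.19). Both SMOC genes were higher in Lhx6-/- libraries. Per kilobase of merged exons the ratio of Smoc2 to Smoc1 was 4.85, 4.03 and 2.57 in controls and 9.85, 9.15 and 9.99 in Lhx6-/- libraries. The size of this ratio depended on the length used, and by the transcript with the longest coding sequence it was 12, 9.95 and 6.34 in controls and 24.3, 22.6 and 24.6 in Lhx6-/- libraries. The ratios of the genotypes did not overlap, which follows in part from the choice of Smoc2. A change of length scales the ratio alike in all libraries, so it cannot alter this separation.

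Among the testicans, proteoglycans that act on pericellular proteases, Spock1 rose and the others did not pass the test. Spock1 (chr13:57421195-57908332, minus strand) was measured at 7.49, 9.34 and 7.12 CPM in controls and at 15, 16.5 and 13.1 CPM in Lhx6-/- libraries. Every Lhx6-/- library was above every control library. The means were 7.98 ± 1.19 and 14.9 ± 1.68 CPM (SD, n = 3 each), and the log2 fold change was 0.90 (SE 0.14, adjusted p = 0.0185, edgeR quasi-likelihood). The fold and p rule was met in 13 of 13 alternative fits, with log2 fold changes of 0.63 to 1.03. The adjusted p ran from 3.21e-06 to 0.134 over these fits, and was 0.119 without Control replicate 3, 0.0837 or 0.126 without the first or the second Lhx6-/- library, 0.134 with the Y-linked level as a covariate and 0.131 with the epithelial marker level as a covariate.

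Spock2 (chr10:60106219-60135198, plus strand), the most abundant testican here, was measured at 42.8, 32.2 and 37.6 CPM in controls and at 42, 40.9 and 33.8 CPM in Lhx6-/- libraries. Its libraries overlapped and its log2 fold change was 0.05 (SE 0.11, adjusted p = 0.94, edgeR quasi-likelihood). The ratio of Spock1 to Spock2 per kilobase of merged exons was 0.116, 0.192 and 0.125 in controls and 0.236, 0.266 and 0.257 in Lhx6-/- libraries. By the transcript with the longest coding sequence it was 0.198, 0.329 and 0.215 in controls and 0.404, 0.457 and 0.441 in Lhx6-/- libraries. This length scales all libraries alike and is no separate check. The minor testican stood closer to the major one in each mutant library than in any control. Spock3 (chr8:62951009-63357103, plus strand) was the scarcest member, with 38, 18 and 15 estimated counts in controls and 15, 20 and 37 in Lhx6-/- libraries. The libraries overlapped, and the spread within each genotype was wide. Its log2 fold change was -0.16 (SE 0.62, adjusted p = 0.969, edgeR quasi-likelihood), an error large enough to hide a change of the size seen for Spock1.

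Sparc, also called osteonectin, carried nearly all of the family's transcript. Sparc (chr11:55394500-55423183, minus strand) was measured at 13033, 12020 and 12733 CPM in controls and at 12589, 12280 and 13590 CPM in Lhx6-/- libraries. The groups overlapped throughout. The log2 fold change was 0.03 (SE 0.09, adjusted p = 0.965, edgeR quasi-likelihood), and over the alternative fits it ran from -0.02 to 0.09. Sparc took 1.2% to 1.33% of all estimated counts in a library. Of the summed level of the 8 members per kilobase of exon, Sparc accounted for 93.9% to 94.7% in controls and 92.4% to 93.1% in Lhx6-/- libraries. The share of Smoc2 in the same sum was 0.224% to 0.259% in controls and 1.01% to 1.24% in Lhx6-/- libraries, still a small part of the family.

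Fstl1, a secreted glycoprotein that binds BMP ligands, was the second most abundant member (chr16:37776873-37836514, plus strand). It was measured at 685, 728 and 657 CPM in controls and at 779, 738 and 810 CPM in Lhx6-/- libraries. The lowest Lhx6-/- library was just above the highest control, so the groups did not overlap, but the difference was small. The log2 fold change was 0.17 (SE 0.08, adjusted p = 0.513, edgeR quasi-likelihood), and it was above 0 in all 13 alternative fits, from 0.08 to 0.21.

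Sparcl1, or hevin, is known from vessels and neural tissue. Sparcl1 (chr5:104079111-104113733, minus strand) was measured at 112, 125 and 108 CPM in controls and at 164, 123 and 144 CPM in Lhx6-/- libraries. Lhx6-/- replicate 2 lay within the control range. The log2 fold change was 0.32 (SE 0.10, adjusted p = 0.278, edgeR quasi-likelihood). Vascular marker sums were also higher in Lhx6-/- libraries. Of 12 endothelial markers 2 met the fold and p rule, both higher, and their summed level was 498 to 515 CPM in controls and 559 to 663 CPM in Lhx6-/- libraries. Of 10 pericyte and smooth muscle markers 2 met it, both higher, and their sum was 559 to 626 CPM in controls and 737 to 875 CPM in Lhx6-/- libraries. Of all genes tested, 1.58% met the rule as higher. Sparcl1 divided by the endothelial sum was 0.227 ± 0.0206 in controls and 0.238 ± 0.0249 in Lhx6-/- libraries (SD, n = 3 each), and divided by the pericyte and smooth muscle sum it was 0.195 ± 0.0246 and 0.183 ± 0.0142. Both ratios overlapped between the genotypes. Library by library the match was partial. Control replicate 2 had the highest Sparcl1 of the controls (1.08 times their mean) and the lowest endothelial (0.986) and pericyte and smooth muscle sums (0.943). Lhx6-/- replicate 1 was the highest for all of them (1.42, 1.31 and 1.48 times the control mean). The part of vascular tissue in the level of Sparcl1 was not tested beyond these ratios.

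**Figure D2:**
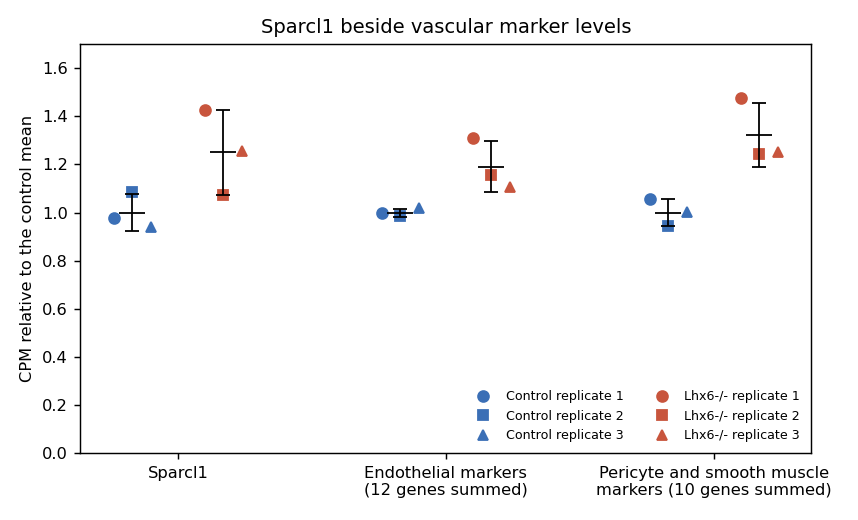
Sparcl1 and the summed endothelial and pericyte or smooth muscle markers in each library, in CPM relative to the control mean, with control libraries in blue, Lhx6-/- libraries in red, and the group mean ± SD in black. Sparcl1 averaged 1.25 times its control mean in Lhx6-/- libraries, beside 1.19 times for the endothelial sum and 1.32 times for the pericyte and smooth muscle sum.

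The other members were read beside the same marker lists. The vascular sums were 1.19 times and 1.32 times their control means, and the ratio was 4.97 for Smoc2, 1.85 for Smoc1 and 1.86 for Spock1. Single endothelial markers had ratios of 1.02 (Kdr) to 1.65 (Vwf). Single pericyte and smooth muscle markers had ratios of 0.964 (Tagln) to 1.83 (Myh11). The odontoblast sum was 5415 to 5910 CPM in controls and 6560 to 7221 CPM in Lhx6-/- libraries, with none of 7 markers meeting the rule. It mostly follows Dspp, which averaged 4466 and 5606 CPM, and the median log2 fold change of the 7 markers was 0.06. The dental mesenchyme sum was 1453 to 1547 CPM and 1620 to 1667 CPM, of which Vim averaged 984 and 1072 CPM. The sums for dental follicle and periodontal ligament, osteoblast and epithelium overlapped between the genotypes. Erythroid markers were lower, at 3037 to 3765 CPM in controls and 1610 to 2405 CPM in Lhx6-/- libraries. Schwann cell markers overlapped in sum, at 330 to 661 CPM and 374 to 689 CPM. Of these 9 markers 2 met the rule as higher, beside 1.58% of all genes tested. Chondrocyte markers also overlapped in sum, at 824 to 1199 CPM and 753 to 874 CPM. That sum mostly follows Col2a1, which averaged 965 ± 188 and 757 ± 57.1 CPM (log2 fold change -0.35). Of the 8 measured, 2 met the rule as higher, beside 1.58% of all genes tested. They were Hapln1 (6.03 ± 0.725 and 9.47 ± 1.26 CPM) and Col9a1 (0.948 ± 0.115 and 4.97 ± 1.8 CPM), both named after their values were seen. Col10a1 and Matn3 had log2 fold changes of -0.91 and -0.59 without meeting the rule, and the median of the 8 was 0.04. Epithelial and ameloblast transcripts were abundant in all 6 libraries, at 115914 to 147341 CPM, so the captured tissue was not mesenchyme alone. Of 17 epithelial markers 4 met the rule as lower, beside 1.71% of all genes tested. The enamel matrix genes Amelx and Ambn made up 93.7% to 95.2% of the summed level. No measured marker stayed under 0.1 CPM in all 6 libraries, but the erythroid marker Ahsp and the chondrocyte marker Matn1 were not among the 23594 genes. The part of these cell types in the levels of the members was not tested beyond the fit with the epithelial sum as a covariate, which mostly follows those 2 genes.

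**Figure D3:**
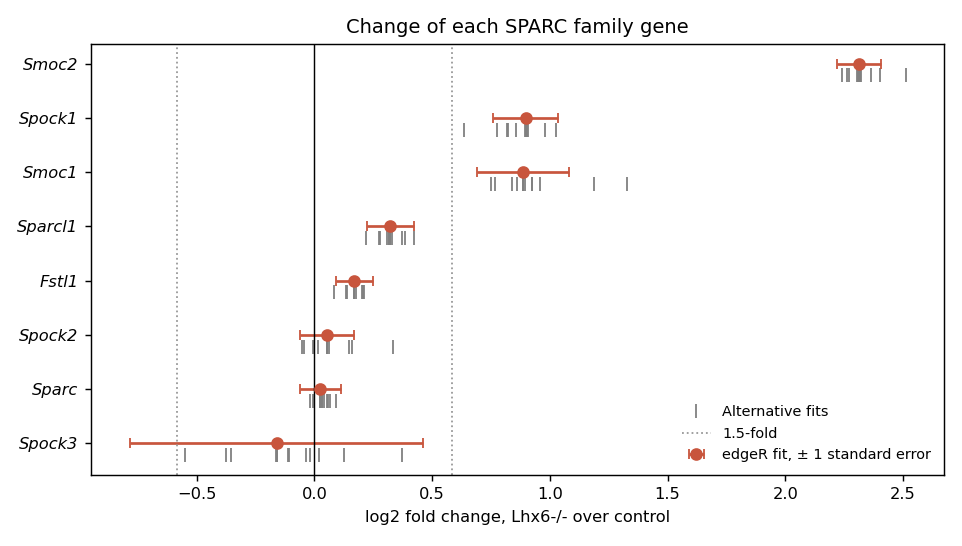
Log2 fold change of each SPARC family gene, Lhx6-/- over control, with red points and bars for the edgeR fit ± 1 standard error, grey ticks for the 13 alternative fits and dotted lines at a 1.5-fold change. Smoc2 lay at 2.31, Spock1 at 0.90 and Smoc1 at 0.89, while the bar of Spock3 spanned 0 widely.

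Levels of the members were compared with each other per length. Per kilobase of merged exons, the order was Sparc, Fstl1, Sparcl1, Smoc2, Spock2, Smoc1, Spock1 and Spock3 in both genotypes. In controls Sparc stood at 3325 ± 137 CPM per kilobase, Fstl1 at 140 ± 7.26, Sparcl1 at 39.1 ± 2.96 and Smoc2 at 8.44 ± 0.922 (SD, n = 3). Spock2 followed Smoc2 at 6.78 ± 0.963 CPM per kilobase, and these 2 neighbours overlapped in controls. In Lhx6-/- libraries Smoc2 stood at 41.9 ± 2.73 CPM per kilobase, apart from Spock2 at 7.03 ± 0.809 and close to Sparcl1 at 48.9 ± 6.92. The place of Smoc2 depended on the length used. Its merged exons span 6951 bases and include a transcript with a retained intron, while the transcript with the longest coding sequence has 2817 bases. By that transcript length Smoc2 stood at 20.8 ± 2.27 CPM per kilobase in controls, below Sparcl1 at 41.6 ± 3.15, and at 103 ± 6.74 in Lhx6-/- libraries, above Sparcl1 at 52 ± 7.36. The order of the other members was the same with each length.

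The genes that flank Smoc2 on chromosome 17 did not meet the fold and p rule. Dact2, an intracellular modulator of Wnt and TGF-beta signalling 75.2 kb before it, averaged 19.6 ± 4.92 CPM in controls and 14.3 ± 2.57 in Lhx6-/- libraries (log2 fold change -0.45, adjusted p = 0.479, edgeR quasi-likelihood). Thbs2, a matricellular thrombospondin 261 kb after it, averaged 125 ± 4.24 and 143 ± 6.64 CPM (log2 fold change 0.20, adjusted p = 0.341, edgeR quasi-likelihood). The libraries of the genotypes did not overlap for Dact2, Thbs2 and Afdn, farther before Smoc2, a trait of 15.5% of all genes tested. They overlapped for Wdr27, farther after it. Of the 2 genes on each side of Spock1, Trpc7, Smad5, Klhl3 and Hnrnpa0, none met the rule. The 2 nearest tested protein-coding genes on each side of every member were compared. Among all of these only Gm20498 and Fat2 met the rule, both as lower, beside 1.71% of all genes tested. Gm20498, 172 kb after Smoc1, averaged 3.08 ± 0.846 CPM in controls and 1.71 ± 0.395 in Lhx6-/- libraries (log2 fold change -0.85, adjusted p = 0.304, edgeR quasi-likelihood), and Fat2, an atypical cadherin gene 57.9 kb before Sparc, averaged 16.5 ± 4.12 and 9.7 ± 2.38 CPM (log2 fold change -0.76, adjusted p = 0.265). Sparcl1 lies in the cluster of dentin and bone matrix genes on chromosome 5. There Dspp, the gene of dentin sialophosphoprotein, averaged 4466 ± 235 CPM in controls and 5606 ± 338 in Lhx6-/- libraries (log2 fold change 0.33, adjusted p = 0.199, edgeR quasi-likelihood).

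Promoter windows of RefSeq (GRCm38.p6, 250 bases before to 50 after a transcription start) were matched for 5 of the 8 members, namely Sparc, Spock1, Spock2, Spock3 and Fstl1. The TAAT-based cores bound by LIM homeodomain proteins were searched on both strands because Lhx6 belongs to that class. TAATTA was present in 5.29% of all 32851 windows, TAATTG in 8% and TAATGA in 9.78%. None of these letters occurred in the windows of the 5 members, which says nothing of sites elsewhere. The 250 bases before the start of Spock1, the member that passed the test, lie at chr13:57908333-57908582 on the minus strand, are 61.2% G and C and hold 20 CpG dinucleotides. They are shown 5′ to 3′.
Spock1: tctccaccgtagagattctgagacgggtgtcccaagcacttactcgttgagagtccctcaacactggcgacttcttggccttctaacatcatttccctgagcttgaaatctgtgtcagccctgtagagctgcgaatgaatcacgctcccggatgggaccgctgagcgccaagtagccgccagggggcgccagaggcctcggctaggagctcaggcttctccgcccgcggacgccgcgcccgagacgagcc

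The genes that share domains, partners or pathways with the family were counted in 9 lists of 147 genes, of which 141 were tested. The fold and p rule was met by 10 of them, 7 higher and 3 lower, which is 7.09% beside 3.28% of all genes tested, and 7 had an adjusted p under 0.05, beside 0.403% of all genes tested. The median log2 fold change over the lists was 0.09. The lists were chosen with earlier results of these data known, so these shares are a description and no test of the lists. Wfikkn2, Igfbp3, Nbl1 and Bmp2 were also among the top differentially expressed genes that the study reported from these libraries. Without 1 library at a time, 8 to 10 genes met the rule. The adjusted p-values below come from edgeR's quasi-likelihood test over all genes. Counts for single lists stand beside 1.58% of all genes tested that met the rule as higher and 1.71% as lower.

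Among 12 tested proteins with a follistatin-like domain outside the family, 1 rose and none fell. Wfikkn2, an inhibitor of myostatin and GDF11, was measured at 14.9, 13.2 and 10.4 CPM in controls and at 38.9, 32.5 and 26.6 CPM in Lhx6-/- libraries, a log2 fold change of 1.35 (SE 0.16, adjusted p = 0.00879). The libraries did not overlap. The genes of highest CPM in this list, Agrn, Htra3 and Igfbp7, had log2 fold changes of 0.11, 0.04 and 0.29 and missed the threshold. Among 11 tested proteins with a thyroglobulin type 1 domain, 1 met the rule as higher and 1 as lower. Igfbp3, a carrier of insulin-like growth factors, was measured at 347, 304 and 312 CPM in controls and at 722, 510 and 636 CPM in Lhx6-/- libraries, a log2 fold change of 0.96 (SE 0.12, adjusted p = 0.00739). Igfbp3 was thus abundant and separated between the genotypes in every library. Igfbp4 and Igfbp5, of the same carrier family, had log2 fold changes of 0.34 and 0.09 and missed the threshold. Nid1, the basement membrane linker nidogen, rose by 0.41 on the log2 scale (adjusted p = 0.0405), under the fold minimum.

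Most other matricellular proteins gave no call. Of 21 tested, Tgfbi was higher by the rule and Tnr was lower. Tgfbi, a secreted adhesion protein induced by TGF-beta, averaged 84.6 ± 8.42 CPM in controls and 132 ± 19.3 CPM in Lhx6-/- libraries (log2 fold change 0.64, adjusted p = 0.0299), and it was under the fold minimum without Lhx6-/- replicate 1 (0.52) and with the Y-linked level as a covariate (0.57). Fbln5, an organizer of elastic fibres, averaged 21.5 ± 1.64 and 30.2 ± 1.58 CPM (log2 fold change 0.49, adjusted p = 0.0394). Tnr stood near 1 CPM with overlapping libraries, and its log2 fold change of -1.27 was 0.45 with the Y-linked level as a covariate. It no longer met the rule when replicate 1 (-0.84) or 3 (-1.20) of the controls or replicate 2 (-1.02) or 3 (-1.13) of the Lhx6-/- group was left out. Nor did it with the epithelial marker level as a covariate (-1.25). The abundant periostin (Postn), tenascin C (Tnc) and osteopontin (Spp1) had log2 fold changes of -0.00, -0.03 and 0.15.

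None of 18 collagens and receptors that partner SPARC met the rule, although the libraries of the genotypes did not overlap for 10 of them, beside 15.5% of all genes tested. Their median log2 fold change was 0.15. Col1a1 averaged 75994 ± 10351 CPM in controls and 80747 ± 3666 in Lhx6-/- libraries, and its log2 fold change was 0.09 (adjusted p = 0.88). Col1a2 followed it at 0.04. Col3a1, the fibrillar collagen of looser tissue, averaged 2341 ± 45.7 and 2893 ± 172 CPM (log2 fold change 0.31, adjusted p = 0.202). The proteases linked to testicans also gave no call, with none of 12 meeting the rule and log2 fold changes of 0.05 for Mmp14, 0.01 for Ctsb and -0.11 for Ctsk. The 24 genes of integrin-linked kinase adhesion gave none either, with log2 fold changes of 0.09 for Itgb1, 0.02 for Itgb5 and 0.04 for Tln1.

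In the BMP pathway, on which SMOC proteins and Fstl1 bear, the genes that met the rule were ligands and antagonists. Some of them were near 1 CPM and did not pass after adjustment. Bmp2 was measured at 23.8, 26.8 and 20.1 CPM in controls and at 41.1, 37.8 and 41.1 CPM in Lhx6-/- libraries, a log2 fold change of 0.76 (SE 0.10, adjusted p = 0.00879). Gdf6 was low, at 1.45 ± 0.356 CPM in controls and 0.622 ± 0.254 CPM in Lhx6-/- libraries, with a log2 fold change of -1.22 (adjusted p = 0.299). With the Y-linked level as a covariate the log2 fold change of Gdf6 was -0.60 and that of Bmp2 was 0.56, and neither met the rule. With genotype alone in the fit, Bmp2 and Gdf6 were the 2 of 18 ligands, receptors and Smads that met the rule, beside 3.28% of all genes tested. Of 15 secreted BMP antagonists, 3 met it, all as higher, beside 1.58% of all genes tested. Nbl1, a DAN-family antagonist, was measured at 114, 99.2 and 97.4 CPM in controls and at 201, 183 and 158 CPM in Lhx6-/- libraries, a log2 fold change of 0.80 (SE 0.10, adjusted p = 0.00576). Grem1 averaged 1.03 ± 0.514 and 1.96 ± 0.0659 CPM (log2 fold change 0.93, adjusted p = 0.399), and no longer met the rule when replicate 2 (0.67) or 3 (0.81) of the controls or replicate 2 (0.94) or 3 (0.91) of the Lhx6-/- group was left out. Nor did Grem1 meet it with the epithelial marker level as a covariate (0.89). None of 13 BMP response genes met the rule, and their log2 fold changes ran from -0.36 to 0.20 with a median of 0.03. Among them Id3, a direct target of BMP signalling, had a log2 fold change of 0.03, Runx2 of 0.08 and Sp7 of 0.06.

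The calls after adjustment in these lists did not hold in every fit. Without Control replicate 3 the adjusted p was 0.0697 for Igfbp3, 0.0697 for Nbl1, 0.0623 for Bmp2, 0.187 for Tgfbi, 0.304 for Nid1 and 0.21 for Fbln5. Wfikkn2 was at 0.0528 without Control replicate 2, and Bmp2 was at 0.0513 without Lhx6-/- replicate 1. Without Control replicate 1 Tgfbi was at 0.0676, Nid1 at 0.0827 and Fbln5 at 0.0827. Without Lhx6-/- replicate 1 these 3 genes were at 0.0836, 0.223 and 0.19, and without Lhx6-/- replicate 2 at 0.0879, 0.201 and 0.117. Without Lhx6-/- replicate 3 Nid1 was at 0.0541 and Fbln5 at 0.0988. Wfikkn2, Igfbp3 and Nbl1 met the fold and p rule in all 13 alternative fits, and Bmp2 met it in 12 of them. Over those fits the adjusted p ran from 3.15e-14 to 0.077 for Wfikkn2, from 5.09e-15 to 0.0697 for Igfbp3, from 2.59e-12 to 0.0697 for Nbl1 and from 2.73e-08 to 0.0723 for Bmp2. It ran from 1.77e-06 to 0.187 for Tgfbi, from 6.31e-05 to 0.304 for Nid1 and from 0.000416 to 0.21 for Fbln5.

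**Figure D4:**
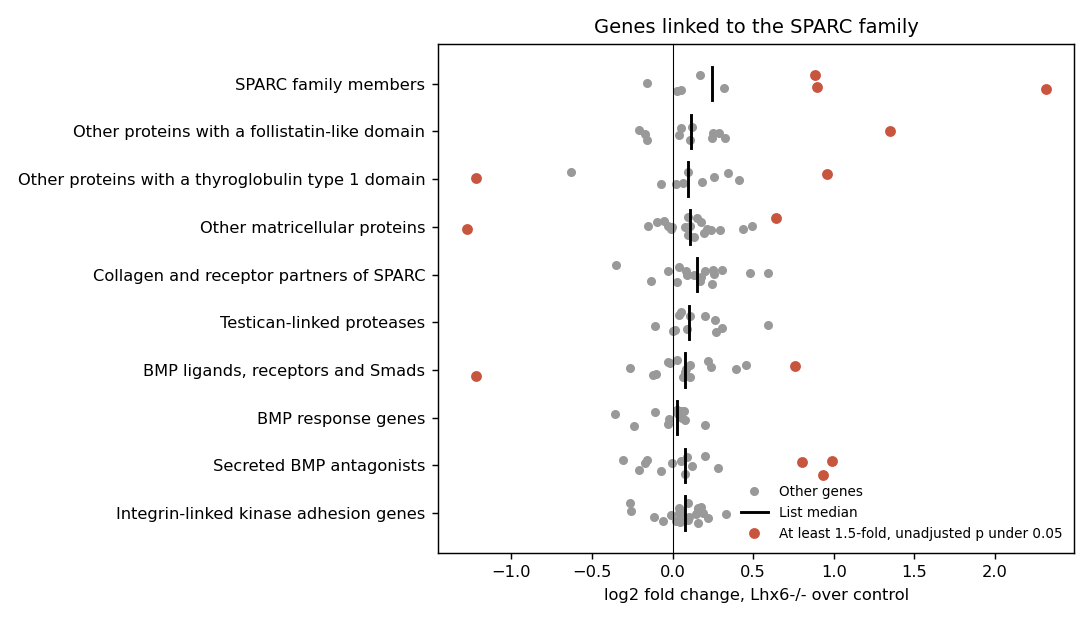
Log2 fold change, Lhx6-/- over control, of every tested gene in the SPARC family and the 9 linked lists, 1 point a gene spread at random in height within its list, with red points where the fold and p rule was met and black bars at list medians. List medians lay near 0, from 0.03 for BMP response genes to 0.25 for the family with Smoc2 included, and Smoc2 lay farthest to the right at 2.31.

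Genes whose log2 CPM over the 6 libraries was most like that of Smoc2 were sought among 9480 genes with a mean of at least 10 CPM. They were Dclk1 (Pearson r 0.995), Mgat3 (0.994), Fam171a1 (0.989), Tenm3 (0.987) and Mcmbp (0.986). The 6 points fall in 2 genotype groups and share their libraries, so these values mostly describe a step between the genotypes. Dclk1, a doublecortin-like kinase, averaged 13.9 CPM in controls and 28.5 CPM in Lhx6-/- libraries, a log2 fold change of 1.03, and Tenm3, a teneurin, averaged 44.5 and 60.5 CPM. The other 3 had log2 fold changes of 0.16 to 0.31, so their pattern was like that of Smoc2 in shape and not in size. For Spock1 the most similar genes were Klf10 (r 0.981) and Timp3 (r 0.980), an inhibitor of metalloproteinases. For Smoc1 they were Cox4i2 (r 0.995) and Phf20 (r 0.983). Fstl1 was most like Tspan2 (r 0.988), and Sparcl1 most like Mxra7 (r 0.982) and Gdf11 (r 0.980). Sparc was most like Gcc2 and Gne, Spock2 most like Tle2 and Fam193b, and Spock3 most like Slc22a23 and Slc29a1, with r of at least 0.969 in each pair. Sparc, Spock2 and Spock3 showed no such step, with log2 fold changes of 0.03, 0.05 and -0.16, and Spock3 rests on 15 to 38 counts. For every member the highest r of 9480 genes over only 6 libraries was taken, and such a maximum is high whatever the gene. The pairs are therefore a description and no test of likeness.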

How the data were processed

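RNA was measured in 3 control and 3 Lhx6-/- libraries of laser-captured molar tissue, by single-end reads of 75 cycles. Per the submitters' processing notes the tools were STAR 2.6.1d and Partek, with mm10. The authors deposited unnormalized estimated counts for 23594 genes, each reaching 10 in some library, and for each gene a score, the authors' sum over libraries of 1 + CPM. The deposited count table carried no names, and its gene order was checked against those sums (largest relative deviation 1.71e-07). The deposited comparison also held ratios, log2 ratios, fold changes, p-values and false discovery rates, which were not used.

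Estimated counts were rounded. Genes were tested with edgeR 4.0.16 (R 4.3.3) by the quasi-likelihood test, two-sided, with TMM normalization, the expression filter and genotype alone, for all genes at once, and p-values were adjusted by Benjamini-Hochberg over 20114 genes. Biological variation between libraries was 0.202 (coefficient of variation). The SE was obtained from the log2 fold change and the F statistic (their ratio, with F under the root). The fold and p rule is that of the study's methods. An exact permutation test of 3 against 3 libraries cannot go below 0.1 and was not used. DESeq2 1.42.0, limma 3.58.1, other scalings, covariates, the replicate block and leaving out each library were alternatives. The edgeR, DESeq2 and limma fits were tested on simulated data. Coordinates, exons and coding sequences are those of GENCODE vM21 (GRCm38), which held 23180 of the gene names.

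The members and lists were chosen with earlier results of these data known. Genes named are the members, Lhx6, list genes that met the rule or had an adjusted p under 0.05, the 3 of each list with the highest mean CPM, the genes most like each member (5 for Smoc2 and 2 for the others), and flanking genes, the last chosen after their values were seen. A few genes that this rule names are not reported here, although they stand in the counts of their lists. In situ hybridization was not analysed here.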

Additional observations from a re-analysis of the deposited data

How the results depend on the processing

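Of 149 values under alternatives, 147 counted as unchanged by loose criteria. A member other than Smoc2 counted so if it kept its side of the fold and p rule, whatever its adjusted p. For members that missed the rule the sign was not considered. Counts of genes were allowed to differ by up to 1.5-fold, ranks in controls had to be equal, and the change of Smoc2 had to stay within the spread between replicates. Ranks in Lhx6-/- libraries were not among these values. There Smoc2 ranked 4 by merged exons and 3 by the transcript with the longest coding sequence. After adjustment over all genes Spock1 missed 0.05 in 5 of 13 fits and Smoc1 passed it in 3. The sign of the log2 fold change differed from that given in 2 of 13 fits for Sparc, 3 for Spock2 and 3 for Spock3, none of which passed a threshold in any fit. The log2 fold change of Smoc2 was 2.51 with the Y-linked level as a covariate, and of the 7 other members 1 passed at an adjusted p under 0.05 without a fold minimum, in place of 2 by the fold and p rule. The cause was not tested. The study's methods speak of 3 pairs of samples and of littermates, without saying what a pair shares or which libraries form it. The main fit was therefore unpaired. The labels do not say that replicate numbers mark a litter, and the deposited table numbers the Lhx6-/- libraries 2, 3 and 4 where the titles have 1, 2 and 3. Deviations of libraries with the same title number were not correlated above 0.1 (0.026, -0.029 and -0.031). The replicate block rests on the title numbers. With the replicate block 652 genes met the rule, beside 660, and 134 had an adjusted p under 0.05, beside 81, and for Spock1 the adjusted p was 0.00483. Over all genes DESeq2 gave 308 after adjustment, the Y-linked covariate 1174 by the rule and 233 after adjustment, the epithelial covariate 16 after adjustment, and leaving out 1 library 12 to 127 after adjustment. Lengths by the longest coding transcript were chosen after seeing the data. The precision for Spock3 was limited by the spread between libraries at 15 to 38 counts.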
